A study of Bos taurus with 11 samples.

Results

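SERPINA6 (identifier ENSBTAG00000039808 in the count files) encodes corticosteroid-binding globulin, the plasma carrier of cortisol. It was chosen by its fall in the liver of cows in severe negative energy balance (SNEB) relative to cows in mild negative energy balance (MNEB), so the difference between those groups is given as a description and without a test. It is 1 of 21996 genes counted and 1 of the 13960 genes tested, which had 5 or more reads in any cow. Polyadenylated RNA from the liver of multiparous lactating Holstein-Friesian cows was sequenced at 14 days after calving per the labels. The paper gives a range of days at slaughter for each group. A cow in negative energy balance spends more energy than the feed supplies, as is common in early lactation, and the comparison asked which liver transcripts differ with its severity. Cows of the MNEB group (n = 5) were fed ad libitum and served as controls. Cows of the SNEB group (n = 6) were on a restricted diet and were milked more often, so diet and milking cannot be told apart as sources of any difference. The paper selected the cows from larger groups for extremes of energy balance. It also left a further MNEB cow out of its comparison because that cow became ill. Each cow gave 1 library, and the 11 libraries were run on 19 lanes of 3 flow cells, called A, B and C here.

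Corticosteroid-binding globulin is made mainly in the liver and secreted into blood. It belongs to the serpin family of serine protease inhibitors but has no known inhibitory action, and its fold holds a single steroid instead. The hormone it carries is not free to enter cells, so the amount of the globulin in plasma sets part of the cortisol that tissues receive.

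Reads assigned to genes summed to between 1774011 and 4005322 per MNEB cow and between 1869837 and 6852142 per SNEB cow. The totals were not shown to differ between the groups (two-sided exact permutation test of 5 against 6 cows, p = 0.342). SERPINA6 was covered by 389 to 978 reads in each MNEB cow and by 43 to 213 reads in each SNEB cow, so its level was best determined in the MNEB livers. Levels are given in CPM, the reads of a gene per 1000000 reads on genes, after scaling the libraries by the trimmed mean of M-values (TMM).

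In the MNEB livers SERPINA6 was at 240 CPM in MNEB1, 207 CPM in MNEB2, 230.0 CPM in MNEB3, 153 CPM in MNEB4 and 170.0 CPM in MNEB5. In the SNEB livers the lowest level was 11.8 CPM in SNEB6, the median was 37.2 CPM and the highest was 55.5 CPM in SNEB2. Every MNEB cow was above every SNEB cow, and the levels of the groups did not overlap. The lowest MNEB level, in MNEB4, was 2.75 times the highest SNEB level, in SNEB2. The group means were 199.99 CPM ± 37.6 (SD, n = 5) and 35.9 CPM ± 16.9 (SD, n = 6), and the SNEB mean was 17.9% of the MNEB mean. The fitted log2 fold change, SNEB minus MNEB, was -2.50 with a standard error of 0.30, which is a 5.67-fold higher level in MNEB. Since whole liver was sequenced, fewer cells that express the gene and less RNA per cell cannot be told apart.

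**Figure D1:**
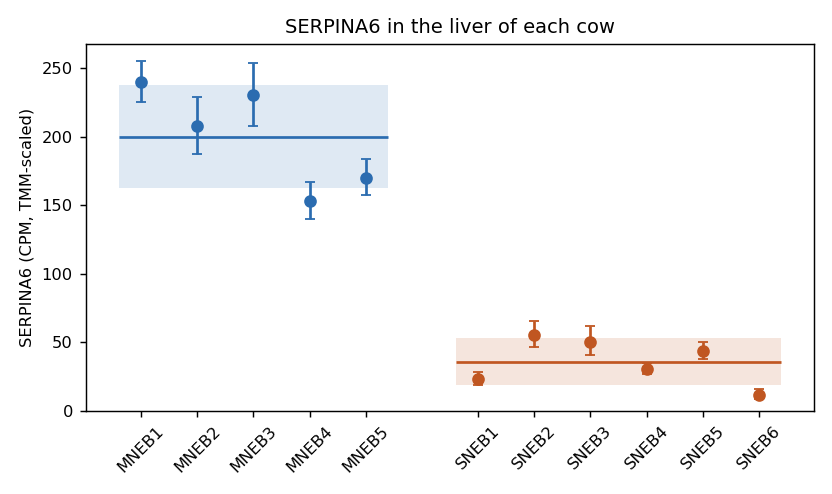
SERPINA6 in CPM (vertical axis) for each cow, MNEB in blue and SNEB in orange. Points carry exact 95% Poisson intervals for counting error, and each line and band show a group mean ± SD; the lowest MNEB point, at 153 CPM, lies above the highest SNEB point, at 55.5 CPM.

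From the highest to the lowest, the order of the MNEB cows was MNEB1, MNEB3, MNEB2, MNEB5 and MNEB4. The order of the SNEB cows was SNEB2, SNEB3, SNEB5, SNEB4, SNEB1 and SNEB6. Neighbours within each group were compared by a two-sided exact binomial test of their reads, with p adjusted over the 9 pairs by the Benjamini-Hochberg method. Such a test compares libraries and covers counting error only, and it was chosen after the levels were seen. The cows were put in order by the same levels, so the direction of each difference follows from the order. With 1 library per cow, no conclusion on the cows themselves is drawn from it. MNEB1 and MNEB3 did not differ beyond counting error (exact binomial adjusted p = 0.504), nor did MNEB3 and MNEB2 (exact binomial adjusted p = 0.230) or MNEB5 and MNEB4 (exact binomial adjusted p = 0.127). The libraries of MNEB2, at 207 CPM, and MNEB5, at 170.0 CPM, differed beyond counting error (exact binomial adjusted p = 0.0059). Among the SNEB cows, SNEB2 and SNEB3 did not differ beyond counting error (exact binomial adjusted p = 0.504), and neither did SNEB3 and SNEB5 (exact binomial adjusted p = 0.345). The libraries of SNEB5, at 43.6 CPM, and SNEB4, at 30.7 CPM, differed beyond counting error (exact binomial adjusted p = 0.0027). So did those of SNEB4 and SNEB1, at 23.2 CPM (exact binomial adjusted p = 0.046). SNEB4 pools 3 lanes. The first, at 25.2 CPM relative to the reads of that lane alone, lay close to the lanes of SNEB1, at 24.4 and 24.2 CPM. SNEB6 also differed beyond counting error from SNEB1 (exact binomial adjusted p = 0.0014), and the exact 95% Poisson interval of SNEB6 ran from 8.57 to 15.9 CPM.

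Relative to its mean, SERPINA6 was spread more widely over the 6 SNEB cows than over the 5 MNEB cows, in part through SNEB6. In CPM the SD was larger in MNEB, at 37.6 against 16.9 in SNEB. The highest SNEB level was 4.69 times the lowest, against 1.57 times in MNEB. The coefficient of variation was 18.8% in MNEB, where counting alone would give 4.42%, and 47.0% in SNEB, where counting alone would give 9.76%. On the log2 scale of CPM plus 0.5, the SD over cows was 0.28 in MNEB and 0.82 in SNEB. Over the 9019 other genes with a mean of at least 50 reads per cow, the median of that SD was 0.30 in MNEB and 0.24 in SNEB. The spread of SERPINA6 was thus larger than that of 44.2% of those genes in MNEB and of 98.2% of them in SNEB. Without SNEB6, a comparison added after the values were seen, the highest SNEB level was 2.40 times the lowest, the coefficient of variation was 33.2%, and the SD of 0.52 on the log2 scale was larger than that of 91.9% of the other genes. The difference in spread between the groups was not tested.

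Within each library, SERPINA6 was also placed among the 13960 genes tested by its CPM, which is not corrected for transcript length. It was above 94.0% of the genes in MNEB1 and above 87.4% in MNEB4, the highest and the lowest place in MNEB. In SNEB the places ran from above 33.9% of the genes in SNEB6 to above 63.7% in SNEB2, with a median of 54.1%. SERPINA6 thus ranked among the more abundant transcripts of the MNEB livers by read count and near the middle of the list in most SNEB livers.

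The log2 fold change of SERPINA6 was the 12th lowest of all genes tested. The 11 genes with a lower value had means of only 1.36 to 31.3 reads per cow, against 338 reads for SERPINA6. DIRAS3, a Ras-like growth suppressor, was the only one of those 11 genes called by edgeR (log2 fold change -3.12, edgeR adjusted p = 0.0054). None of the 9020 genes with a mean of at least 50 reads had a lower log2 fold change than SERPINA6, and the next lowest among them was ABCG8, at -2.43. The edgeR quasi-likelihood test at an adjusted p under 0.1 called 76 of 13960 genes (0.544%), of which 30 were lower in SNEB (0.215%) and 46 were higher (0.330%). Every SNEB cow was below every MNEB cow for 75 genes (0.537%), SERPINA6 among them, and 56 of these had a mean of at least 50 reads. Of those 56 genes, 0 had a wider ratio of the lowest MNEB to the highest SNEB level than SERPINA6. These places follow from the way the gene was chosen and support nothing further.

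**Figure D2:**
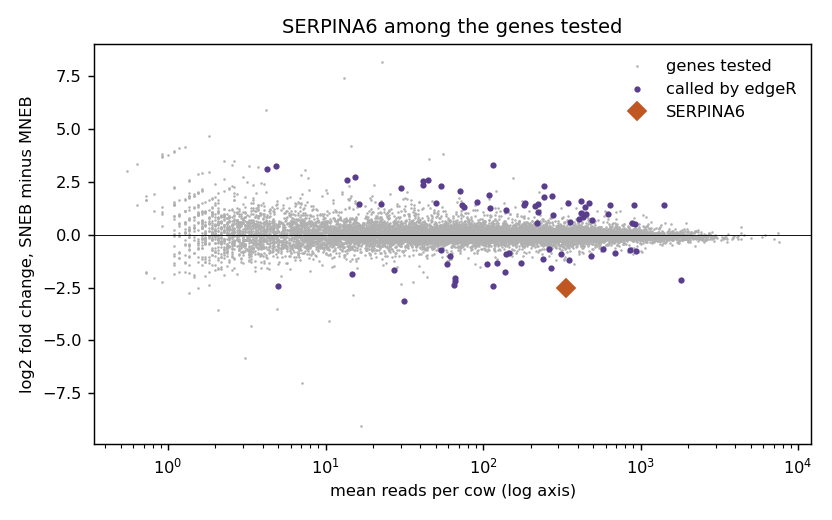
Log2 fold change, SNEB minus MNEB (vertical axis), against the mean reads per cow on a log axis for the 13960 genes tested (grey), with the 76 genes called by edgeR in purple and SERPINA6 as an orange diamond. Genes with lower values than SERPINA6 lie to its left, at means of 31.3 reads or fewer.

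The lanes give a measure that the choice of the gene did not use, since the lanes of a library were summed before the groups were compared. In MNEB, SERPINA6 was at 239 and 249 CPM in the lanes of MNEB1, at 158 and 142 CPM in those of MNEB4 and at 163 and 176 CPM in those of MNEB5, each CPM here being relative to the reads of that lane alone. In SNEB it was at 24.4 and 24.2 CPM in the lanes of SNEB1, at 41.7 and 46.3 CPM in those of SNEB5 and at 11.5 and 11.6 CPM in those of SNEB6. The lanes of a cow therefore lay close together, also in SNEB6, whose lanes held 19 and 24 reads of SERPINA6. The 3 lanes of SNEB4, which were on the same flow cell, were farther apart, at 25.2, 29.5 and 38.8 CPM. The paper gives different loading concentrations for the lanes of SNEB4, and also for those of MNEB4. The part of loading in these values was not tested. MNEB2, MNEB3, SNEB2 and SNEB3 were run on 1 lane each, so their levels have no such check.

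The 7 libraries with more than 1 lane gave 9 pairs of lanes. A two-sided exact binomial test of the reads of each pair, given their sum and the lane totals, found 0 pairs that differed at an adjusted p under 0.1 and 1 pair at an unadjusted p under 0.05. That pair was the first and the last lane of SNEB4, with 58 and 87 reads of SERPINA6 (exact binomial p = 0.0124, adjusted p = 0.112). The last lane was at 1.54 times the first, with an exact 95% interval of 1.09 to 2.19. For MNEB1, whose lanes were the best covered, the second lane was at 1.04 times the first, with an interval of 0.917 to 1.18. For SNEB6 the ratio was 1.01 and the interval ran from 0.530 to 1.95, so ratios between its lanes within those bounds were not excluded at this depth.

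**Figure D3:**
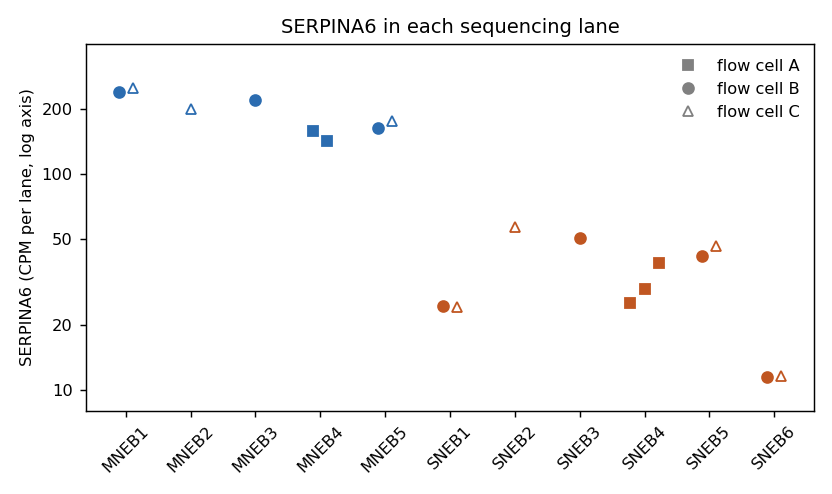
SERPINA6 in CPM per lane on a log axis for the lanes of each cow, MNEB in blue and SNEB in orange, with squares, filled circles and open triangles for flow cells A, B and C. Lanes of MNEB cows lie between 142 and 249 CPM and lanes of SNEB cows between 11.5 and 56.98 CPM.

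Both groups were run on each flow cell, so SERPINA6 could also be read within a flow cell. Each CPM here is relative to the reads of a cow on that flow cell, without TMM scaling. On flow cell B the mean over cows was 207 CPM ± 39.4 (SD, n = 3) in MNEB and 31.9 CPM ± 17.4 (SD, n = 4) in SNEB. On flow cell C it was 208 CPM ± 37.1 (SD, n = 3) and 34.7 CPM ± 20.6 (SD, n = 4). Flow cell A held 1 cow of each group, MNEB4 at 152 CPM and SNEB4 at 31.1 CPM. The ratio of MNEB to SNEB was thus 4.89 on flow cell A, 6.49 on flow cell B and 6.00 on flow cell C, and the lanes of the groups did not overlap on any of the 3. These ratios split the same reads by which the gene was chosen. Their direction and the lack of overlap therefore follow from that choice and support nothing further. The ratios on B and C are also not independent, since 5 of the 7 cows behind each (MNEB1, MNEB5, SNEB1, SNEB5 and SNEB6) were run on both.

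Genes whose level went with that of SERPINA6 from cow to cow were looked for apart from the group difference. For each gene the deviation of its log2 (CPM + 0.5) from its own group mean was taken in the 11 cows, and Pearson's r with the deviations of SERPINA6 was calculated for 9019 genes with a mean of at least 50 reads per cow. The values of r are descriptions over 11 cows that share flow cells and differ in depth, and the largest of so many are high by selection. The SNEB cows carried 91.6% of the squared deviations of SERPINA6, and SNEB6 alone carried 52.1%. Over the genes, the median r was -0.018, and 95% of the values lay between -0.584 and 0.572.

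The gene most like SERPINA6 was ENSBTAG00000019592, for which the sources used here give no name, with r = 0.946 and Spearman's rho = 0.909 over the 11 cows. In MNEB it was at 22.3 CPM in MNEB1, 18.7 CPM in MNEB2, 21.3 CPM in MNEB3, 15.2 CPM in MNEB4 and 18.7 CPM in MNEB5. In SNEB it ran from 11.3 CPM in SNEB6 to 27.4 CPM in SNEB3. Like SERPINA6 it was lowest in MNEB4 and SNEB6 and highest in MNEB1 among the MNEB cows, but its group levels overlapped and its log2 fold change was 0.02 with a standard error of 0.22 (edgeR adjusted p = 0.995). Without SNEB2 and SNEB6, the cows in which SERPINA6 was farthest from its group mean, its r was 0.883. The next gene was ENSBTAG00000005090, with r = 0.886 and rho = 0.791, and r = 0.717 without those cows. The 5 highest values of r ended at 0.866. The ranking rested on SNEB6: without that cow 0 of the 5 highest and 5 lowest genes remained among the 10, although r of ENSBTAG00000019592 was still 0.877.

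The gene that ran most against SERPINA6 was ENSBTAG00000017804, also unnamed, with r = -0.929 and rho = -0.855. It was at 76.5 to 81.9 CPM in the MNEB cows, and in SNEB it was lowest in SNEB2, at 70.9 CPM, and highest in SNEB6, at 93.1 CPM. Its r was -0.727 without SNEB2 and SNEB6. It was followed by ENSBTAG00000001520, with r = -0.889 and rho = -0.745, and r = -0.695 without the same cows. Of the 10 genes at both ends, 0 were called between the groups by edgeR, 2 had an unadjusted p under 0.05 and 1 was called by DESeq2. Of all genes tested, 1165 (8.35%) had an unadjusted p under 0.05 by edgeR, and DESeq2 called 290 of the 13140 genes to which it gave an adjusted p (2.21%).

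Names were at hand for 413 genes only, which the study had picked for their differences between these same cows. Of those reported here, 291 had a mean of at least 50 reads, and the named gene most like SERPINA6 was KLF9, a zinc finger transcription factor whose transcription glucocorticoids raise; this look at named genes was added after the values were seen. KLF9 was at 127 CPM in MNEB1, 148 CPM in MNEB2, 133 CPM in MNEB3, 92.2 CPM in MNEB4 and 162 CPM in MNEB5. In SNEB it ran from 61.7 CPM in SNEB6 to 113 CPM in SNEB2, the same cows that were lowest and highest in SERPINA6. Over the 11 cows r was 0.749 and rho was 0.655, and r was 0.538 without SNEB6 and 0.466 without SNEB2 and SNEB6. The first place of KLF9 rested on SNEB6, since without that cow r was 0.684 for IGFALS and 0.641 for IGF1. The named gene that ran most against SERPINA6 was NES, which encodes the intermediate filament protein nestin, with r = -0.713 and rho = -0.709. Its r was -0.533 without SNEB6 and -0.440 without SNEB2 and SNEB6. In the same settings FAM82A2 was lower, at -0.666 and -0.555, so the place of NES also rested on SNEB6. NES ran against SERPINA6 in the 6 SNEB cows (r = -0.923) but with it in the MNEB cows (r = 0.909), so r over the 11 cows pools opposite signs. In MNEB it was lowest in MNEB4, at 26.0 CPM, and highest in MNEB3 and MNEB1, at 52.0 and 41.7 CPM. This difference between the groups was not tested.

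**Figure D4:**
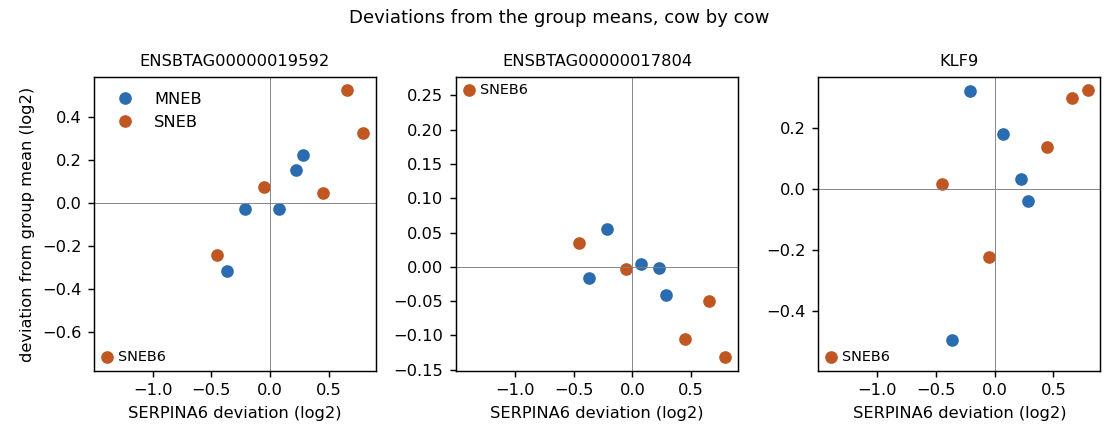
Deviation of 3 genes from their group means (vertical axes, log2) against the deviation of SERPINA6 (horizontal axes, log2) in the 11 cows, MNEB in blue and SNEB in orange. The genes are those with the highest r (0.946), the lowest r (-0.929) and the highest r among named genes (KLF9, 0.749), and SNEB6 lies at the far left of each panel.

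SERPINA6 was set beside gene lists related to its family, its ligand and its tissue. Of the 186 symbols on these lists, 13 could be tied to an identifier, all through the genes that the study had picked on these samples, so their directions are not independent evidence and no list could be read as a whole. By edgeR at an adjusted p under 0.1, 1 of the 13 was higher in SNEB and 2 were lower, against 0.330% and 0.215% of all genes tested. On flow cells B and C only, with 9 cows, IGF1 alone of these 3 was called (edgeR adjusted p = 0.053, against 0.216 for ANGPTL4 and 0.171 for IGFALS). The median log2 fold change was -0.53 over the 13 genes and -0.01 over all genes tested. The median size of the log2 fold change was 1.11 over the 13 genes and 0.16 over all genes tested, as follows from how they were picked.

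Of the serpins of clade A, to which SERPINA6 belongs, 1 of 19 could be read. SERPINA3, the acute-phase inhibitor antichymotrypsin, ranged from 2.21 CPM in MNEB1 to 153 CPM in MNEB3 and from 28.8 CPM in SNEB5 to 269 CPM in SNEB3. Its groups overlapped (edgeR adjusted p = 0.798), and r with SERPINA6 was -0.039 over the 11 cows (0.128 without SNEB6). None of the 13 other serpins listed could be read.

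In the neighbourhood of SERPINA6 on the RefSeq assembly ARS-UCD2.0, which is not the assembly the reads were aligned to, the nearest genes on one side were SERPINA10, PPP4R4 and IFI27L2, and on the other SERPINA1, SERPINA11 and SERPINA14. LOC132343404 overlaps the span of SERPINA6. The paper describes no library step that keeps the strand, and the strand setting of the counting was not given. Reads of overlapping genes therefore cannot be told apart. No identifier could be tied to any of these neighbours, so whether they moved with SERPINA6 is not reported.

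Of the genes that glucocorticoids are known to raise, 4 of 28 could be read, and their fitted differences lay on both sides of 0. ANGPTL4, an inhibitor of lipoprotein lipase, was called higher in SNEB (log2 fold change 1.38, edgeR adjusted p = 0.046), and its call was lost without MNEB4, MNEB5 or SNEB6 (edgeR adjusted p from 0.107 to 0.147). PDK4, the kinase that shuts off pyruvate dehydrogenase, was not called at 95.1 CPM ± 47.0 (SD, n = 5) in MNEB and 205 CPM ± 77.8 (SD, n = 6) in SNEB (edgeR adjusted p = 0.291). DDIT4, an inhibitor of mTOR signalling, was at 150.2 CPM ± 101 (SD, n = 5) in MNEB and 67.1 CPM ± 13.4 (SD, n = 6) in SNEB, and KLF9 was at 132 CPM ± 26.4 (SD, n = 5) and 92.6 CPM ± 20.1 (SD, n = 6). DDIT4 and KLF9 did not pass the test (edgeR adjusted p = 0.279 and 0.338). DESeq2 called DDIT4 (adjusted p = 0.073) and PDK4 (adjusted p = 0.083), and edgeR called DDIT4 without MNEB4 and PDK4 without SNEB3 (adjusted p = 0.088 for both). Apart from KLF9, r of the deviations with those of SERPINA6 over the 11 cows was 0.158 for PDK4, 0.036 for DDIT4 and -0.163 for ANGPTL4. Without SNEB6 r was 0.215 for PDK4, 0.183 for DDIT4 and -0.015 for ANGPTL4. All these values pool groups that differed. In the 6 SNEB cows alone r was 0.925 for KLF9, -0.048 for PDK4, -0.708 for DDIT4 and -0.669 for ANGPTL4. In the 5 MNEB cows r was 0.981 for PDK4, 0.797 for DDIT4, 0.353 for KLF9 and 0.001 for ANGPTL4. PDK4 had the same order of MNEB cows as SERPINA6, from 164 CPM in MNEB1 to 43.6 CPM in MNEB4. DDIT4 was lowest in the same cows as SERPINA6, MNEB4 and MNEB5, at 46.0 and 80.1 CPM. Whether the relation differs between the groups was not tested. None of the 11 genes listed for cortisol metabolism and none of the 12 listed for the glucocorticoid receptor complex could be tied to an identifier.

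SERPINA6 is counted among proteins whose output falls in the acute phase, and 2 of 10 such genes could be read. IGF1, the circulating growth factor, was called lower in SNEB (log2 fold change -2.40, edgeR adjusted p = 0.014), and so was IGFALS, the subunit that keeps it in plasma and 1 of the 14 listed carriers (log2 fold change -2.34, edgeR adjusted p = 0.096). IGFALS was called in only 3 of the 11 fits that left out a cow, those without MNEB1, SNEB2 or SNEB5 (edgeR adjusted p up to 0.198, without SNEB6). It was also not called with library totals alone as the scaling (edgeR adjusted p = 0.101) or with the deepest lane of each cow (edgeR adjusted p = 0.166). Within groups r with SERPINA6 was 0.259 for IGF1 (rho = 0.264) and 0.272 for IGFALS (rho = 0.436) over the 11 cows. These values rested on SNEB6, without which r was 0.641 for IGF1 and 0.684 for IGFALS, and r was 0.504 and 0.556 without SNEB2 and SNEB6. Of the genes that rise in the acute phase, 3 of 21 could be read and 0 were called by edgeR, against 0.544% of all genes tested. IL1RN had an unadjusted p under 0.05, against 8.35% of all genes tested. It was also called by DESeq2, against 2.21% of the genes to which DESeq2 gave an adjusted p. By edgeR, IL1RN was called with the flow cell combination as a term (adjusted p = 0.057) and without MNEB2 (adjusted p = 0.013), and A2M without SNEB3 (adjusted p = 0.034). A2M, a broad protease inhibitor, went with SERPINA6 within groups to some degree (r = 0.608, rho = 0.691). Over the 11 cows r was -0.039 for SERPINA3 and -0.081 for IL1RN, the interleukin-1 receptor antagonist. The value of IL1RN pools opposite signs, with r = 0.286 in the MNEB cows and -0.488 in the SNEB cows. Whether that relation differs between the groups was not tested.

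Of the liver transcription factors, 2 of 19 could be read and 0 were called by edgeR, against 0.544% of all genes tested. Both had an unadjusted p under 0.05, against 8.35% of all genes tested. FOXA3 was called by DESeq2, against 2.21% of the genes to which it gave an adjusted p. Both genes were among those the study had picked for their differences between these cows. FOXA3, a forkhead factor of liver, averaged 147 CPM in MNEB and 64.1 CPM in SNEB (edgeR adjusted p = 0.183), with every SNEB cow below every MNEB cow. That separation held for 0.537% of all genes tested, and among the listed genes also for IGF1 and IGFALS. ANGPTL4 was higher in every SNEB cow than in every MNEB cow, as were 107 of the 13960 genes tested. CEBPA, which drives many genes of the mature hepatocyte, averaged 82.0 CPM ± 31.98 (SD, n = 5) in MNEB and 132 CPM ± 40.0 (SD, n = 6) in SNEB (edgeR adjusted p = 0.457). Within groups r with SERPINA6 was -0.279 for FOXA3, and -0.317 without SNEB6. For CEBPA it was -0.266, and 0.002 without SNEB6, so its value rested on that cow.

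**Figure D5:**
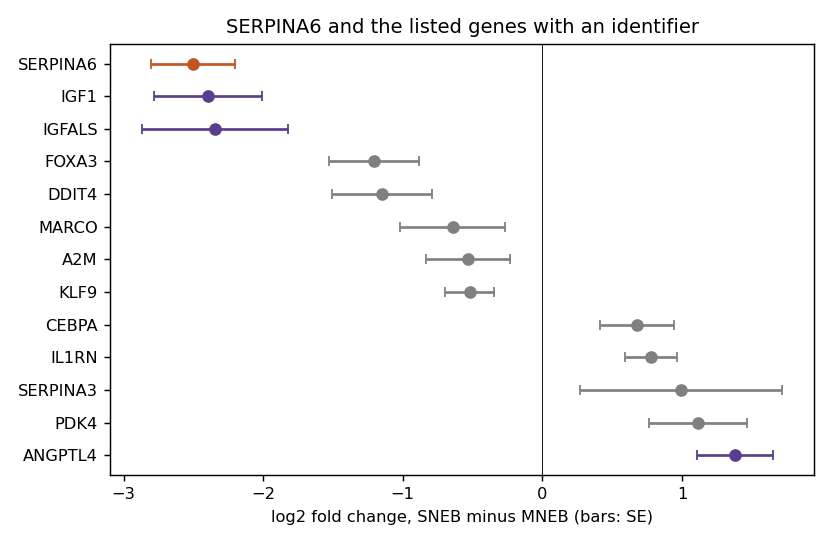
Log2 fold change, SNEB minus MNEB, with its standard error as bars for SERPINA6 (orange) and 12 listed genes with an identifier, purple where called by edgeR and grey where not; the erythroid gene with 0 reads in a cow is left out. SERPINA6, at -2.50, lies next to IGF1, at -2.40, and IGFALS, at -2.34.

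The called genes with a log2 fold change nearest to that of SERPINA6 and a mean of at least 10 reads were ABCG8, IGF1, IGFALS, FADS1 and FADS2, with values from -2.43 to -2.15. ABCG8 exports sterols into bile (edgeR adjusted p = 0.046, lost without MNEB4 or SNEB6 and on flow cells B and C only, where edgeR adjusted p = 0.185), and FADS1 and FADS2 desaturate fatty acids (edgeR adjusted p = 0.0054 and 0.0129). Within groups r with SERPINA6 was between 0.259 and 0.489 for these 5 genes and rho between 0.264 and 0.627, the highest being that of FADS1. Without SNEB6 r was between 0.309 for FADS1 and 0.684 for IGFALS.

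The cell makeup of the livers could not be checked beside SERPINA6. None of the 16 hepatocyte markers had an identifier, nor had any listed marker of cholangiocytes, stellate cells, endothelial cells, lymphocytes or adrenal cortex. Of 8 macrophage markers only MARCO could be read, at 139 CPM ± 63.0 (SD, n = 5) in MNEB and 90.4 CPM ± 51.5 (SD, n = 6) in SNEB (edgeR adjusted p = 0.712), with r = -0.120 to SERPINA6 (0.123 without SNEB6). Of 6 erythroid markers only the haemoglobin gene HBB (HBD by its human name) could be read, at 49.9 CPM in MNEB2 and between 0 and 1.19 CPM in the other cows. The part of either cell type in the level of SERPINA6 was not tested.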

How the data were processed

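Liver polyA RNA of 5 MNEB and 6 SNEB cows was sequenced by the authors as single reads. The deposited values are raw read counts per Ensembl gene and lane. Reads were processed with CASAVA 1.4, Bowtie, SAMtools and HTSeq according to the submitters' processing notes. The methods state alignment to BCM4, uniquely aligned reads only, and collapse of reads with an identical start to a single read. Such a collapse can compress counts of abundant genes. The strand setting is not given in the sources used here. Lanes of each cow were summed.

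Groups were compared with edgeR 4.0.16 (R 4.3.3), TMM scaling and the quasi-likelihood test on 13960 genes (5 or more reads in any cow), with Benjamini-Hochberg adjustment and calls at 0.1. The script was tested on simulated data. DESeq2 1.42.0, other scalings, filters and designs, single lanes, flow cell subsets and left-out cows were alternatives. Exact tests used SciPy 1.17.1 (Python 3.11.15). Exact intervals at 95% cover counting error only.

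The sources pair 413 identifiers with names, through the study's own choice of genes, and the RefSeq table ties 0 of its 37063 genes to an Ensembl identifier. Named were SERPINA6, called members and the 3 most abundant tested members of each list, and the 3 nearest genes on each side. So were the 5 called genes nearest in log2 fold change, DIRAS3, LOC132343404, and KLF9, NES, FAM82A2 and TUFT1 from the named genes at the ends of r. The 5 genes at each end of r were examined, and 4 identifiers of these unnamed genes are printed. Some items are not reported here and were left out of the lists. SERPINA6, the lists and the tests were chosen with earlier results of these data known.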

Additional observations from a re-analysis of the deposited data

Results flagged for a closer look

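The genes examined were SERPINA6 and genes set beside it, not all of which are named here. For each, the gap of the highest or lowest cow to its nearest neighbour was set against the range of its group. Dixon's criterion was used at 95%. No cow stood apart in SERPINA6. Of 60 groups of cows examined, 7 had a cow apart from the rest, and chance gives about 1 in 20. IGF1 was at 20.03 CPM in SNEB2, against at most 8.26 CPM in the other SNEB cows. A2M was at 1329 CPM in SNEB3, against at most 655 CPM in the others of its group. IGFALS was at 386 CPM in MNEB2, against at most 188 CPM in the other MNEB cows. The haemoglobin gene HBB (HBD) was at 49.9 CPM in MNEB2, against at most 1.01 CPM in the other MNEB cows. FADS1 was at 13.6 CPM in SNEB5, against at most 7.79 CPM, and FADS2 at 530.3 CPM in the same cow, against at most 245 CPM. Of the named genes that ran against SERPINA6 within groups, TUFT1 was at 27.5 CPM in MNEB2, against at least 39.2 CPM in the other MNEB cows.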

How the results depend on the processing

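The log2 fold change of SERPINA6 stayed between -2.54 and -2.34 under the 10 alternatives run and between -2.66 and -2.32 without each cow in turn. A correction for positions already taken in a lane was not run, since no transcript length was given. Whether the collapse of reads with an identical start lowered the MNEB level, and how far, was therefore not tested. The number of genes called was 76 with edgeR and 290 with DESeq2, 50 with the deepest lane of each cow and 34 on flow cells B and C only, where fewer cows were fitted. It ran from 40 to 125 without each cow in turn, with 125 without MNEB1, 120 without SNEB3, 50 without MNEB3 and 40 without MNEB5. Of the listed genes, 3 were called by edgeR, 7 with DESeq2 and 1 on flow cells B and C only, and 1 to 4 without each cow in turn, with 1 without MNEB5 or SNEB6. Other causes of these moves were not tested.

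The 10 genes most like and most unlike SERPINA6 depended on the cows. With a mean of at least 200 reads, 6 of the 10 were shared, with Spearman's rho 6, and with the SNEB cows only, a setting added after the data were seen, 2. Without each cow in turn 0 to 8 were shared, with 0 without SNEB6, 5 without MNEB4 or SNEB3 and 6 without SNEB1 or SNEB2.

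Cows of the 2 groups with the same number were run on the same flow cell combination. Their deviations from the group means had r from -0.105 to 0.483 over the 5 pairs, over 0.1 only for those numbered 1 and 3, and not every cow correlated best with its own number, so the numbers were not taken as pairs. With the number as a block, the log2 fold change of SERPINA6 was -2.34, 80 genes were called, and 3 of the listed genes were, while ABCG8 was not called (edgeR adjusted p = 0.262).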
